A study of Mus musculus with 6 samples.

Results

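The miR-17-92 cluster and its close paralogs were measured by 11 probes of 9 miRNA names among the 294 mouse miRNA probes (275 names) of a 2-colour array. Members were all probes whose array annotation carries mmu-miR-17-5p, mmu-miR-17-3p, mmu-miR-18, mmu-miR-19a, mmu-miR-19b, mmu-miR-20a, mmu-miR-20b, mmu-miR-92 or mmu-miR-106a. MiR-18 (probes 10970 and 10983) and miR-20a (probes 10999 and 11008) each had 2 probes, and the rule goes by name and uses no measured value. The cells were G1E-ER4, a mouse erythroid line that lacks its own GATA-1 and carries a form of this transcription factor which estradiol activates. Untreated cells at 0 h (n = 3) were compared with cells given 1e-07 M estradiol for 24 h (n = 3), and per the series' design text the cultures were grown and harvested separately. All cultures were of this 1 line, with erythropoietin at 2 U per ml, stem cell factor at 50 ng per ml and 15% fetal calf serum. No culture held for 24 h without estradiol was among the samples, so time in culture and estradiol cannot be told apart, and neither can effects of estradiol that do not pass through GATA-1. Every sample was labelled in Hy3 and hybridised against a common Hy5 reference mixed equally from the 6 samples. Levels below are log2 ratios of Hy3 to Hy5 after loess scaling within each array. There 0 is the usual ratio of spots of like brightness on an array, not the level of the reference mixture. A constant offset of a probe or dye may remain in a level and was not tested. The difference between groups is given as estradiol minus untreated.

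MiR-17-92 is a polycistron: a single primary transcript carries several hairpins that are cut into separate mature miRNAs. A mature miRNA pairs with target mRNAs mainly through its seed, bases 2 to 8, so members with the same seed share many predicted targets. The cluster is a known transcriptional target of Myc, it is amplified or highly expressed in lymphomas and other tumours, and repression of the pro-apoptotic gene Bim is among its best studied effects. A paralogous cluster on the X chromosome holds miR-106a and miR-20b, and a further one lies within the gene Mcm7 and holds miR-106b, miR-93 and miR-25. Mice without the cluster die around birth with heart, lung and B cell defects. In lines derived from G1E cells, activated GATA-1 is known to lower Myc transcription.

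The mature sequences show which members can be told apart and which share a seed. They are RefSeq sequences of assembly GRCm38.p6, to which 9 of 9 member names matched, and capitals mark the seed. The sequences of the array probes themselves were not used here. In the order of the 5 seeds among the members, with miR-106b added because it shares the seed of miR-17-5p, they read:
miR-17-5p: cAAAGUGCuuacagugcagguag
miR-20a: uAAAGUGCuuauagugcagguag
miR-106a: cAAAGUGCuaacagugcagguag
miR-20b: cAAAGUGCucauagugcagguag
miR-106b: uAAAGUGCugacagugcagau
miR-18: uAAGGUGCaucuagugcagauag
miR-19a: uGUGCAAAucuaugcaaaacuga
miR-19b: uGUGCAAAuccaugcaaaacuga
miR-92: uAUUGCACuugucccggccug
miR-17-3p: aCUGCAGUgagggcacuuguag

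Of the 9 names, 4 share the seed AAAGUGC. Counted from 1 at the 5′ end, with the first-named miRNA's base first, miR-17-5p and miR-106a differ only by U10A. MiR-17-5p and miR-20a differ by C1U and C12U, and miR-20a and miR-20b by U1C and U10C. MiR-19a and miR-19b differ only by U11C. Members this alike may share signal on a probe, and how far the probes separate them was not tested. The hairpins Mir17, Mir18, Mir19a, Mir20a, Mir19b-1 and Mir92-1 lie on the plus strand at chr14:115043671-115044506 (GRCm38.p6). Mature miR-19b and miR-92 are also made by genes of the X chromosome cluster, so these 2 names do not separate the loci.

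Across the arrays, the median Hy3 foreground of miRNA spots was 1667 to 2261 on untreated and 1835 to 1954 on estradiol arrays. Their median local background in Hy3 was 982.5, 1202.5 and 1412 on untreated replicates 1 to 3, against 1035.5, 1017 and 1004.75 on estradiol replicates 1 to 3. In Hy5 the background was 536.25, 747 and 1183.5, against 556.5, 543 and 586.75. The part of this uneven background in the results was not tested. The spot finder's flags left 69 to 70 probes not called empty in Hy3 on untreated and 92 to 97 on estradiol arrays. In Hy5, which holds the common reference, the numbers were 79, 100 and 69 on untreated and 114, 111 and 112 on estradiol arrays. MiR-451, an erythroid miRNA, was called empty on 3 of 3 untreated arrays and above background on 3 of 3 estradiol arrays, 5.04 higher on the log2 scale (limma adjusted p = 4.7e-13). Of the other erythroid markers, miR-144 rose by 1.50 (adjusted p = 9.5e-06) and was above background on 0 untreated arrays and 1 estradiol array, and miR-486 was 0.41 higher (adjusted p = 0.182) and above background on 0 and 3, so before estradiol none of the 3 erythroid markers was above background. Among the markers of myeloid and mast cells, miR-142-3p and miR-142-5p were above background on all 6 arrays and miR-223 on none. After estradiol miR-142-3p rose by 0.92 (limma adjusted p = 0.00197) and miR-142-5p by 0.67 (adjusted p = 0.0258), and miR-223 was 0.35 higher (adjusted p = 0.242). Of 4 markers of liver, nerve and muscle, miR-122a was above background on all 6 arrays and miR-124a on 0 untreated and 3 estradiol arrays. MiR-206 was above background on 0 and 1, and miR-9 on none. In that order their log2 ratios differed by -0.17, -0.05, -0.44 and 0.57 (limma adjusted p = 0.663, 0.904, 0.142 and 0.182). For miR-124a, Hy3 alone was 1.31 higher on the estradiol arrays and Hy5 alone, the common reference, 1.49 higher (both log2, quantile normalized). The median Hy3 foreground over background of these 10 markers ran from 1.45 to 6.30 in untreated cells and from 1.57 to 13.7 after estradiol, and their part in the results on the members was not tested.

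None of the 11 member probes passed the test for a change after estradiol. Of all 294 probes, 19 passed (6.46%; limma with Benjamini-Hochberg adjustment over all 294, threshold 0.05), 17 of them higher (5.78%) and 2 lower (0.68%). None of the members had an unadjusted p under 0.05, where 54 of all probes did (18.4%), and none had groups that did not overlap, where 66 of all probes did (22.4%). Mean log ratios were lower after estradiol for 9 members and higher for 2, and 154 of all probes (52.4%) were lower. Under other background corrections and scalings 8 to 11 members were lower. The count was 10 with median centring, where the median of all probes was 0.01. It was 10 with loess on spots above background in both channels and 11 with spiked controls, where that median was -0.87 and -0.27. The median difference was -0.19 over the members and -0.02 over all probes. In bulk RNA, fewer cells with a miRNA and less of it per cell cannot be told apart. The count of 19 was 9 without estradiol replicate 1 and 11 without estradiol replicate 2, and the member count stayed at 0 without any 1 of the 6 arrays. Scaling changed the split of calls: it was 8 higher and 4 lower with loess fitted on spots above background in both channels, which gave 2 member calls and moved the median of all probes to -0.87, and 9 higher and 33 lower with arrays centred on 3 spiked controls, which gave 3 and moved that median to -0.27.

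The intervals bound how far each member could have moved. All 11 members had a 95% interval of the difference inside 1 log2 unit either way, as did 91.2% of all probes. The lowest bound was -0.72 for miR-19b and the highest was 0.60 for miR-106a, which correspond to a 1.65-fold decrease and a 1.51-fold increase in the ratio of sample to reference. These intervals cover the spread between arrays under this scaling. They do not cover the pull of background on dim spots, which draws a ratio towards 0.

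**Figure D1:**
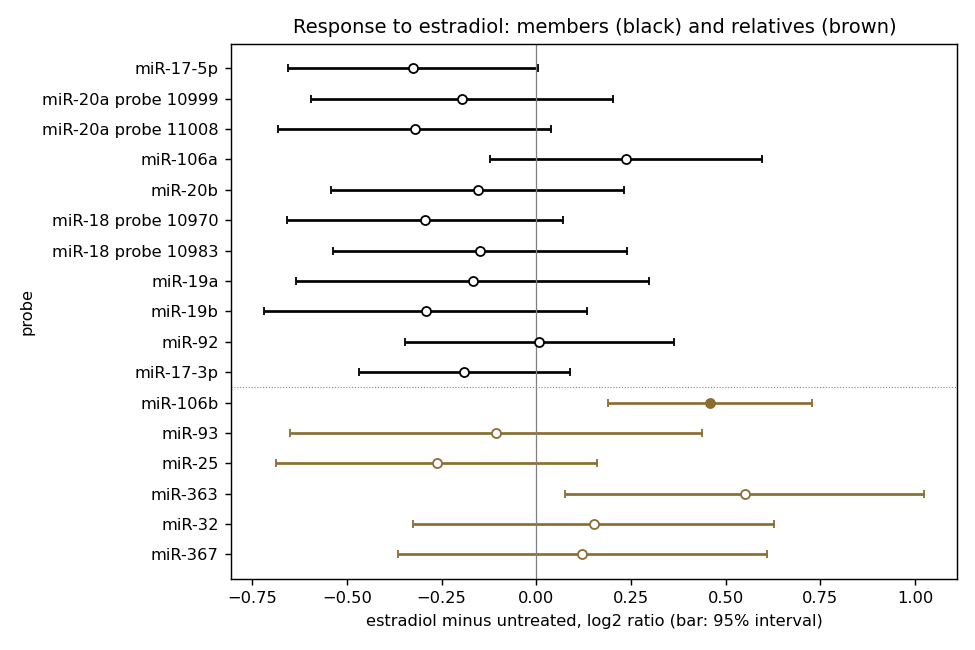
Difference of the log2 ratio, estradiol minus untreated, for the 11 member probes (black) and 6 relatives (brown), with 95% intervals from limma (3 arrays a group; filled, adjusted p under 0.05). All member intervals lie inside 1 log2 unit either way and all cross 0, and that of miR-17-5p ends at 0.01.

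The miR-17 seed family was covered by 5 member probes, of which miR-17-5p, the strand of Mir17 best known for repressing targets, lay closest to a change. Its log2 ratios were 0.14, -0.26 and 0.08 in untreated cells, against -0.24, -0.33 and -0.44 after estradiol. All estradiol arrays were below 0, but untreated replicate 2 lay among them, so the groups overlapped. The group means were -0.01 ± 0.21 and -0.34 ± 0.10 (SD, n = 3 each). Their difference was -0.32 (SE 0.16, 95% interval -0.66 to 0.01; limma adjusted p = 0.281). It read -0.58 with arrays centred on spiked controls and -1.14 with loess on spots above background in both channels, where it passed the threshold (limma adjusted p = 0.0363 and 0.0357).

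MiR-20a, from the same primary transcript, had log2 ratios of 0.18, 0.06 and 0.23 in untreated cells, against 0.14, -0.13 and -0.50 after estradiol on its brighter probe 11008. Estradiol replicate 1 lay inside the untreated range and the other estradiol arrays lay below it. The means were 0.16 ± 0.09 and -0.16 ± 0.32 (SD, n = 3 each), with a difference of -0.32 (SE 0.17, interval -0.68 to 0.04; limma adjusted p = 0.356). Probe 11008 differed by -0.15 without estradiol replicate 3 and by -0.47 without estradiol replicate 1. The second miR-20a probe, 10999, read 0.13, 0.12 and 0.70 in untreated cells, against 0.31, 0.20 and -0.15 after estradiol. Here only estradiol replicate 3 was below all untreated arrays. Its difference was -0.20 (SE 0.19; limma adjusted p = 0.666), and it was -0.0053 without untreated replicate 3 and -0.0614 without estradiol replicate 3. Its log ratio exceeded that of probe 11008 by -0.05 to 0.47 over the 6 arrays, 0.22 on average. Of the 24 spots of probe 10999, 8 were left out for shape or contamination, with 3 of 4 left out on estradiol replicate 2. With all spots kept the differences were -0.44 for probe 10999 and -0.22 for probe 11008.

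The X-linked paralogs with this seed had mean differences of opposite sign, although that of miR-106a was also below 0 in Hy3 alone and under the scalings by bright spots (-0.74) and by spiked controls. MiR-106a, the paralog of miR-17-5p, had log2 ratios of 0.02, -0.41 and -0.22 in untreated cells, against 0.23, -0.15 and 0.03 after estradiol. Estradiol replicates 1 and 3 exceeded all untreated arrays, the latter narrowly, and replicate 2 did not. Its difference of 0.24 was the highest among the members (SE 0.17, interval -0.12 to 0.60; limma adjusted p = 0.497). MiR-20b, the paralog of miR-20a, read -0.38, -0.44 and 0.16 in untreated cells, against -0.34, -0.22 and -0.56 after estradiol. The groups overlapped widely and the difference was -0.15 (SE 0.18; limma adjusted p = 0.748). MiR-106a and miR-20b were called empty in Hy3 on all 6 arrays.

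MiR-18, whose seed differs from that of miR-17-5p at a single base, had 2 probes that gave different levels. Probe 10970 read 0.32, 0.19 and 0.74 in untreated cells, against 0.21, 0.19 and -0.03 after estradiol, and probe 10983 read -0.05, -0.42 and 0.34 against -0.15, -0.17 and -0.27. Both sets of groups overlapped. The differences were -0.29 (SE 0.17; limma adjusted p = 0.431) and -0.15 (SE 0.18; adjusted p = 0.759), and without untreated replicate 3 they were -0.13 and 0.0435. On every array probe 10970 read higher, by 0.23 to 0.61 and by 0.39 on average. Of its 24 spots over the arrays, 8 were left out for shape or contamination, with 3 of 4 left out on untreated replicate 3. With all spots kept the differences were -0.43 for probe 10970 and -0.14 for probe 10983.

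The miR-19 family was found to carry much of the oncogenic activity of the cluster in mouse lymphoma. The log2 ratios of miR-19a were 0.99, 0.40 and 0.27 in untreated cells, against 0.81, 0.36 and -0.01 after estradiol. MiR-19b read 0.30, 0.08 and 0.54 in untreated cells, against 0.47, -0.09 and -0.33 after estradiol. In both, estradiol replicate 3 was the lowest of the 6 arrays and estradiol replicate 1 lay inside the untreated range. The differences were -0.17 for miR-19a (SE 0.22; limma adjusted p = 0.773) and -0.29 for miR-19b (SE 0.20; limma adjusted p = 0.497). Without estradiol replicate 3 they were 0.0286 and -0.12, and without estradiol replicate 1 they were -0.38 and -0.52.

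MiR-92, the last hairpin of the cluster and a member of the miR-25 seed family, differed least. Its log2 ratios were -0.18, -0.03 and 0.32 in untreated cells, against -0.10, 0.11 and 0.11 after estradiol. The estradiol arrays lay inside the untreated range. The difference was 0.01 (SE 0.17, interval -0.35 to 0.36; limma adjusted p = 0.978).

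MiR-17-3p, the other strand of the Mir17 hairpin, was the brightest member and the only one called above background in Hy3 on all 6 arrays. Its log2 ratios were 0.36, 0.12 and 0.17 in untreated cells, against -0.06, 0.22 and -0.07 after estradiol. Estradiol replicates 1 and 3 lay below all untreated arrays, and replicate 2 lay inside their range. The means were 0.22 ± 0.13 and 0.03 ± 0.16 (SD, n = 3 each), with a difference of -0.19 (SE 0.13, interval -0.47 to 0.09; limma adjusted p = 0.497). In fold terms the interval runs from a 1.38-fold decrease to a 1.06-fold increase, the best bounded value among the members.

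**Figure D2:**
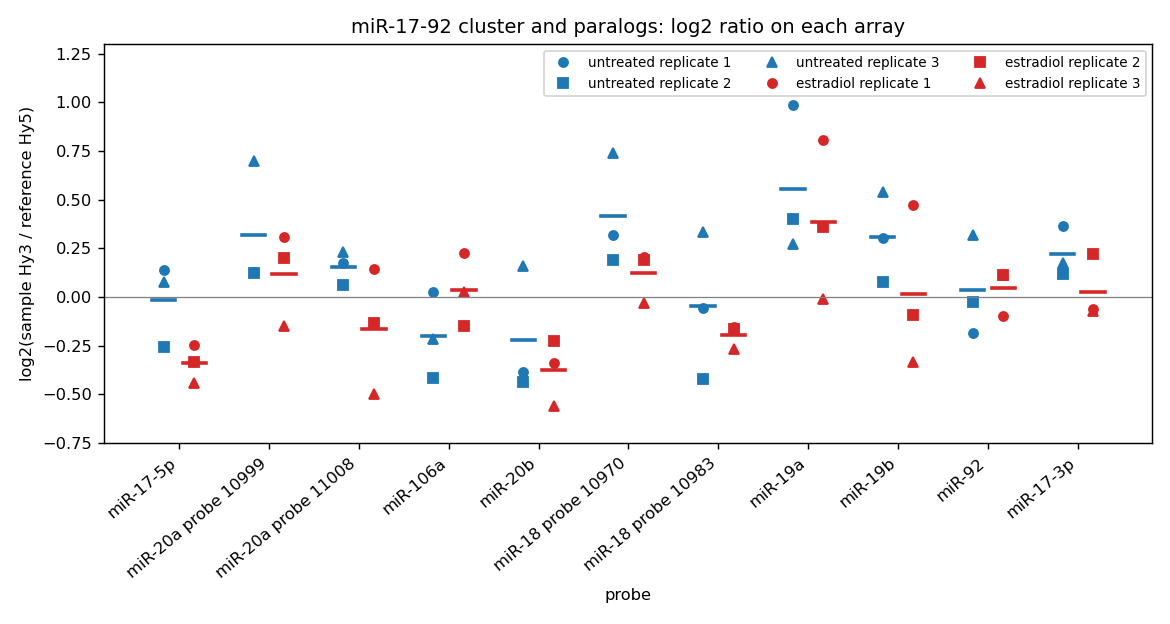
Log2 ratio of sample (Hy3) to common reference (Hy5) for each member probe on each of the 6 arrays, with group means as bars. The groups overlap for all 11 probes, and all estradiol values of miR-17-5p, -0.24, -0.33 and -0.44, lie below 0.

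Ordered by the mean log ratio over the 6 arrays, the members ran from -0.30 for miR-20b to 0.47 for miR-19a. The reference was mixed equally from the same 6 samples, so this order does not rank the miRNAs against the reference. It does not rank abundance between probes either. The 2 probes of miR-18 averaged 0.27 (probe 10970) and -0.12 (probe 10983).

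Most members gave little signal above background, and that sets how far their ratios can be read. A probe was called empty on an array when 2 or more of its 4 spots in that channel were marked empty. MiR-17-3p had a Hy3 foreground of 3.23 to 9.33 times the local background. For miR-17-5p this ratio was 1.87 to 3.62, and for miR-20a probe 11008 it was 2.54 to 3.48. The paralogs were dimmest, with 1.59 to 2.11 for miR-106a and 1.64 to 1.91 for miR-20b. Only miR-17-3p also exceeded background by 2 background SD on all arrays of a group.

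Above-background calls in Hy3 differed between members. On the untreated arrays 5, 2 and 8 members were above background, and on the estradiol arrays 3, 1 and 2. The number over all probes went the other way, from 69 to 70 up to 92 to 97. In Hy5, the common reference, the number over all probes was also higher on the estradiol arrays, 111 to 114 against 69 to 100. MiR-20a probe 11008 was above background on 3 untreated arrays and 1 estradiol array. MiR-17-5p was above background on 2 and 1. Empty spots of miR-17-5p numbered 3 of 12 in untreated and 8 of 12 in estradiol arrays, those of miR-20a probe 11008 numbered 0 and 6, and those of miR-18 probe 10970 numbered 3 and 10. MiR-92 went the other way, with 11 and 9 and above-background calls on 0 and 1 arrays, and miR-17-3p had calls on 3 and 3 arrays and no empty spot. These calls are counts of thresholded spots of 3 arrays a group and were not tested.

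**Figure D3:**
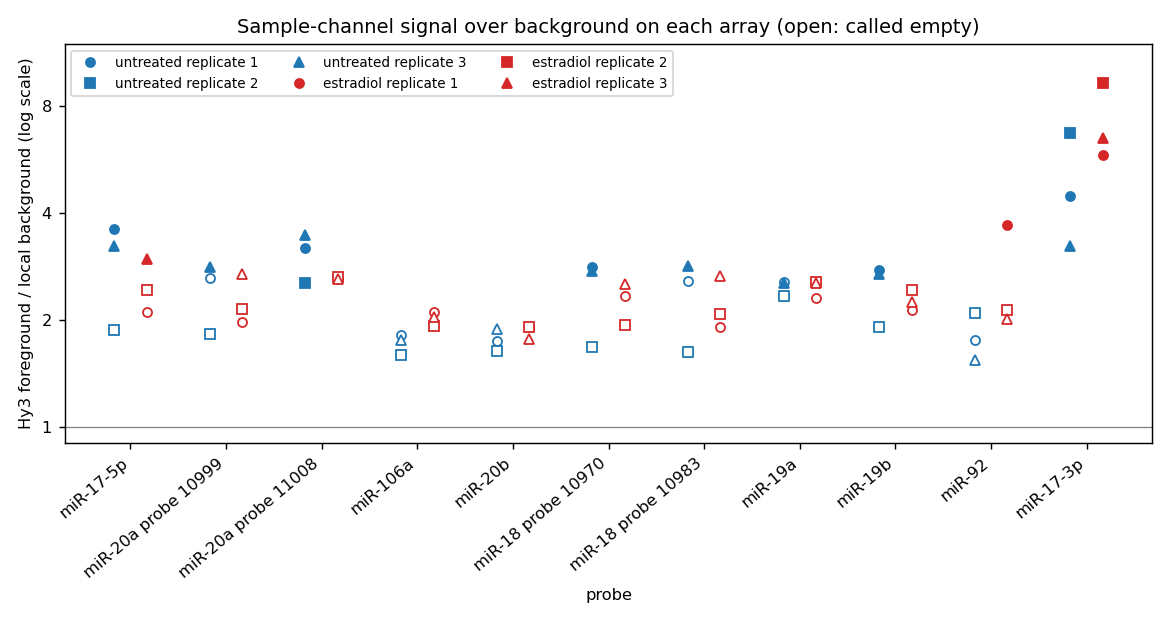
Hy3 foreground over local background for each member probe on each of the 6 arrays, on a log axis, with open symbols where the probe was called empty. MiR-17-3p lies between 3.23 and 9.33, and miR-106a and miR-20b reach at most 2.11 and 1.91.

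There were 5 probes called empty on all estradiol arrays and above background on 1 or 2 untreated arrays. After normalization within and between arrays, their Hy3 signal after estradiol has only an upper bound. Each was also called empty on 1 or 2 untreated arrays, so the folds below are no strict lower bounds. That choice of probes fixes the direction, so the values describe array signal and are no result about the cells. Against that bound, Hy3 on the untreated arrays was 1.72-fold brighter for miR-18 probe 10970 and 1.69-fold for probe 10983. It was 1.60-fold brighter for miR-19a, 1.66-fold for miR-19b and 1.38-fold for miR-20a probe 10999. On the same probes the common reference channel was brighter on the untreated arrays too, by 1.72, 1.79, 1.59, 1.75 and 1.40-fold in the same order. The reference was 1 RNA mixture on all arrays. The limma adjusted p of these 5 probes' log ratios was 0.431 to 0.773. The folds compare Hy3 with Hy3, so they are open to differences in brightness between arrays, which were not tested. No dye swap is described.

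Each channel was also taken alone over the whole member list, which includes these 5 probes and uses the same intensities. In Hy3 alone, quantile normalized, the median difference of the members was -0.86, with 10 of 11 lower, against -0.02 and 52.2% lower over all probes. In Hy5 alone, which holds the reference, it was -0.62, with 9 of 11 lower, against -0.04 and 53.3% lower over all probes. MiR-17-5p was -1.24 in Hy3 and -0.96 in Hy5, and miR-20a probe 11008 was -1.37 and -1.07. MiR-17-3p was -0.06 and 0.22. No member was called in Hy3 alone (limma adjusted p 0.129 or more), where 2 of all 294 probes were (0.68%). For 5 members the unadjusted limma p was under 0.05, a count whose share over all probes is not given here. The Hy5 values were taken after seeing the data and were not tested. For 9 of the 11 members both channels were lower on the estradiol arrays, and the Hy5 RNA was the same on every array.

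**Figure D4:**
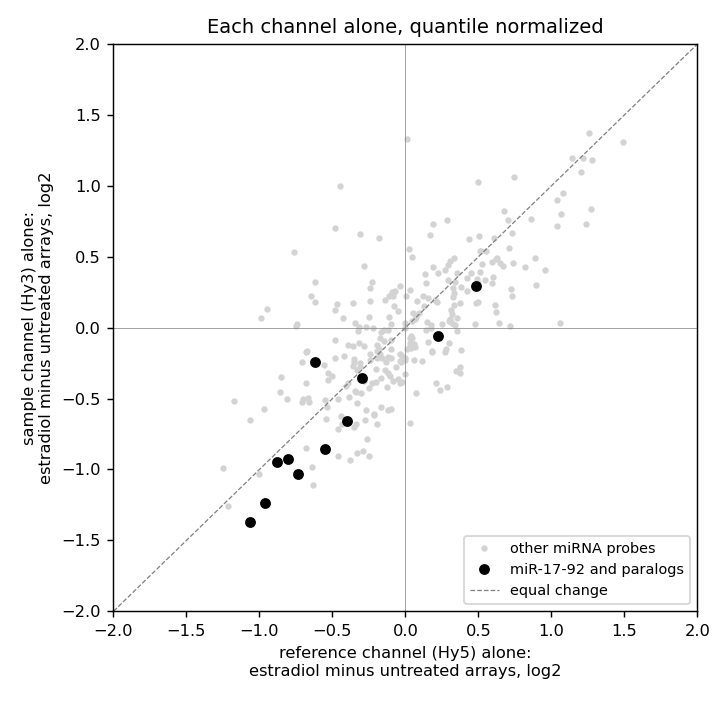
Difference between estradiol and untreated arrays in Hy3 alone (sample) against Hy5 alone (common reference), both log2 and quantile normalized, for all probes in grey and the 11 members in black; the dashed line marks equal change. Members lie mostly at negative values on both axes, with medians of -0.86 and -0.62; 1 probe lies outside the plotted range.

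Within each group the members tended to place the arrays in a shared order, as counts with no test. Estradiol replicate 3 gave the lowest value of its group in 9 of 11 members (37.4% of all probes), and estradiol replicate 1 gave the highest in 8 (38.4%). Untreated replicate 2 was lowest in 9 members (32.0%) and untreated replicate 3 highest in 7 (34.0%). The median log ratio of the members was 0.14, 0.06 and 0.27 on the untreated arrays, against 0.14, -0.09 and -0.15 on the estradiol arrays, while that of all probes was between -0.02 and 0.01 on each array. The median difference of the members, -0.19, was -0.11 without estradiol replicate 3 and -0.13 without untreated replicate 3. It was -0.29 without untreated replicate 2 and also without estradiol replicate 1. The SD between spots of a member on an array had a median of 0.214, and that between arrays of a group 0.236, against 0.283 and 0.212 over all probes.

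Differences in response between paired members were compared array by array, in 5 pairs. MiR-17-5p minus miR-106a, which differ by 1 base, gave log2 differences of 0.12, 0.16 and 0.29 on the untreated arrays, against -0.47, -0.19 and -0.47 on the estradiol arrays. The untreated values were all above 0 and the estradiol values all below it, and the group means differed by -0.56. The exact two-sided permutation test gave p = 0.1, the smallest that 3 against 3 arrays can give, and 0.5 after adjustment over the 5 pairs. MiR-106a was called empty throughout, so this contrast sets a dim probe against a brighter one.

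The other pairs had smaller differences under the reported scaling. The arms miR-17-5p minus miR-17-3p changed by -0.13 (exact permutation p = 0.5, adjusted 0.625) and miR-20a minus miR-20b by -0.17 (exact permutation p = 0.3, adjusted 0.5). MiR-17-5p minus miR-92, 2 families of 1 cluster, changed by -0.33 (exact permutation p = 0.3, adjusted 0.5). MiR-19a minus miR-19b changed by 0.12 (exact permutation p = 0.7, adjusted 0.7). With loess fitted on spots above background in both channels the order turned: the difference was -1.15 for miR-17-5p minus miR-17-3p (exact permutation p = 0.1), -0.95 for miR-17-5p minus miR-92 and -0.39 for miR-17-5p minus miR-106a (exact permutation p = 0.3 each). With 3 arrays a group none of these can reach 0.05, and the values bound no similarity between members.

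Related miRNAs outside the member list were measured by 6 probes, of which 1 passed the test, higher after estradiol. MiR-106b, which has the miR-17-5p seed and is made from the Mcm7 intron, read -0.18, -0.11 and -0.15 in untreated cells, against 0.31, 0.42 and 0.20 after estradiol. Its groups did not overlap, and the mean was 0.46 higher (SE 0.13), a rise that passed the test at a limma adjusted p of 0.0389. It was above background in both channels on all 6 arrays. The call held under 13 of 23 alternatives and was lost without any 1 of untreated replicates 1 and 3 and estradiol replicates 1 and 2 (adjusted p 0.0827 to 0.240). It was also lost under median centring, loess on bright spots, centring on spiked controls, no intensity trend and the replicate number as a block (adjusted p = 0.0547), and in Hy3 alone the difference was -0.24. MiR-106b minus miR-17-5p, a pair chosen after its values were seen and not tested, was -0.32, 0.15 and -0.23 on the untreated arrays, against 0.55, 0.76 and 0.64 on the estradiol arrays.

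The cluster mates of miR-106b were dim. MiR-93, which shares the seed of miR-17-5p, differed by -0.11 (limma adjusted p = 0.897), and miR-25, which shares that of miR-92, by -0.26 (adjusted p = 0.522). MiR-363 of the X-linked cluster read 0.55 higher (SE 0.22; adjusted p = 0.182), and its groups did not overlap. The other seed relatives miR-32 and miR-367 differed by 0.15 and 0.12 (limma adjusted p = 0.793 and 0.843). These 5 probes were called empty in both channels on all 6 arrays.

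**Figure D5:**
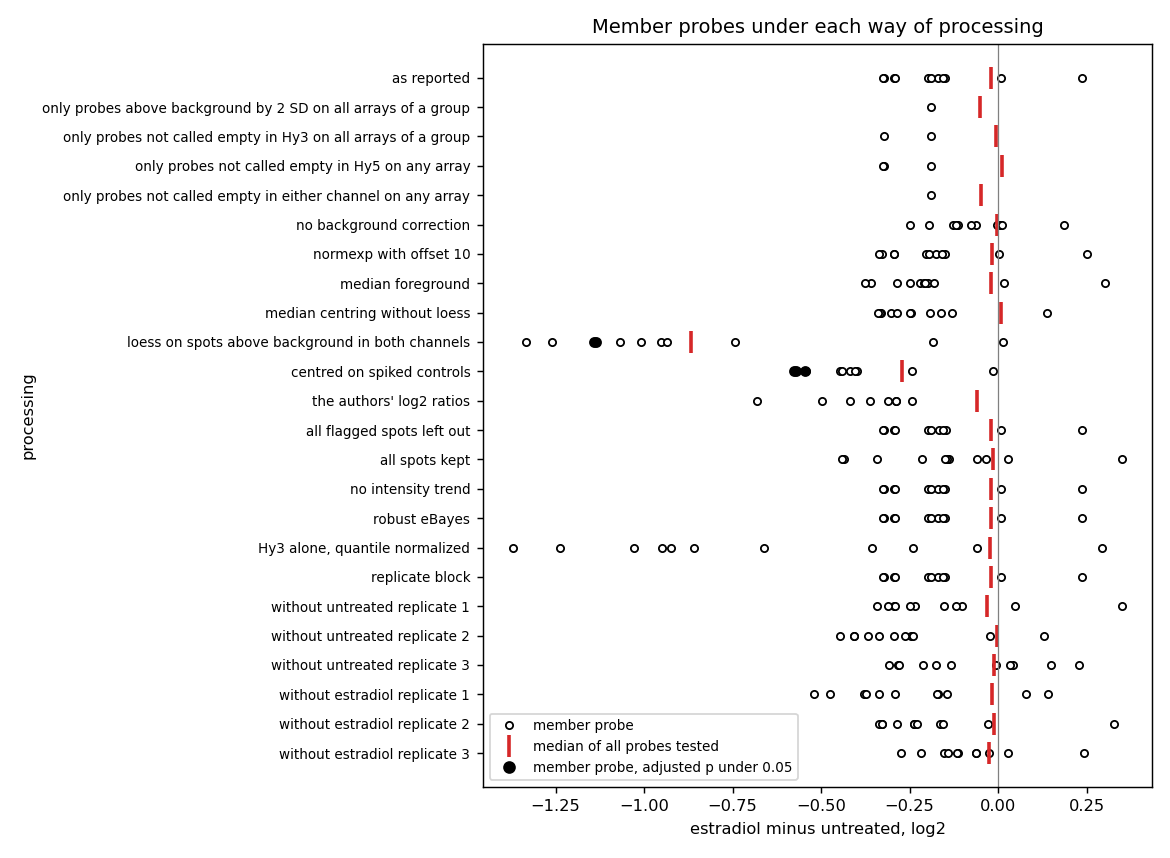
Difference of the log2 ratio for each member probe (circles, filled where the adjusted p was under 0.05) as reported and under 23 alternatives, with the median of all probes tested as a red bar. MiR-17-5p, miR-20a probes 10999 and 11008, miR-18 probe 10970 and miR-19b are below 0 under every alternative that gave a value. MiR-92 lies on both sides of 0.

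By the root mean square difference of log ratios over the 6 arrays, the miRNAs nearest to the mean profile of the 11 members were taken from 48 candidates above background on all arrays. MiR-503 was nearest at 0.0921, followed by miR-214 at 0.126, miR-134 at 0.133 and let-7d at 0.136. MiR-503 read 0.23, 0.04 and 0.31 in untreated cells, against -0.05, -0.09 and -0.19 after estradiol, a difference of -0.31 (limma adjusted p = 0.105). The other three differed by -0.15, -0.09 and 0.03.

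The authors' deposited table of log2 ratios gave all 6 arrays for 4 of the member probes and 3 to 5 arrays for the others. For miR-17-5p the authors' deposited table read 0.16, -0.19 and 0.11 in untreated cells, against -0.18, -0.28 and -0.33 after estradiol. Untreated replicate 2 lay among the estradiol arrays there too. Fitted in the same way on the arrays with a value, the ratios of the authors' deposited table differed by -0.68 for miR-18 probe 10970, -0.50 for miR-20a probe 10999 and -0.42 for miR-19a, against -0.29, -0.20 and -0.17 above. The first 2 of these probes had no value there on untreated replicate 2 and estradiol replicate 1, and miR-19a had none on estradiol replicate 1. The median over the 8 members that could be fitted from the authors' deposited table was -0.34, and 0 of them passed the threshold. Over all 103 probes fitted from it the median was -0.06, and 14 passed (13.6%).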

How the data were processed

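MiRNAs of 6 cultures were profiled on 2-colour arrays. Per the labels' protocols, total RNA was isolated with TRIzol and a glass fiber column and labelled with a Hy3/Hy5 kit by a service provider. The scanner is not given in the sources used. Per spot and channel, the deposited tables give foreground and background intensity and flags, on 2240 spots in 16 blocks (4 spots a probe). Per the file headers, the authors' normalized tables give a ratio of the lowess-normalized channels for 149 to 217 probes an array, and their deposited log2 column is that ratio on the log2 scale, Hy3 over Hy5. The series' value table held identical log2 values on all 6 arrays, with column medians of 0.08, 0.04 and 0.09 (untreated) and -0.01, -0.01 and -0.00 (estradiol). No further centring was found.

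From the intensities, mean foreground and median background were corrected by normexp (offset 50), log2(Hy3/Hy5) was normalized by loess within each array with control spots at weight 0, and spots of a probe were averaged. Spots marked for shape or contamination were left out, 131 to 224 an array. Groups were compared over all 294 probes by lmFit and trended eBayes (limma 3.58.1, R 4.3.3), with Benjamini-Hochberg adjustment at a threshold of 0.05. All probes were fitted, with no filter on dim ones, so that each member has a value; filters were alternatives, as were background correction, scaling, spot flags, the variance model, Hy3 alone and leaving out each array. The computed log ratios correlated with the authors' at 0.965 to 0.992 (across probes within an array). Member pairs were tested by exact permutation (20 splits). Named miRNAs are all members, the miR-106b cluster, miR-363, seed relatives, the 4 most alike probes and the cell type markers. The members and lists were chosen with earlier results of these data known. The procedure was tested on simulated data, with changes set only in probes that had no empty spot in Hy5. Of the members, only miR-17-5p, miR-17-3p and miR-20a probe 11008 are such probes. That test therefore does not cover the dimmer members. Figures were drawn with matplotlib 3.10.9 in Python 3.11.15. The number of arrays, and for most members the dim signal and the choice of scaling, limit the precision.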

Additional observations from a re-analysis of the deposited data

How the results depend on the processing

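Over 23 alternatives, no member was called under 21. With loess fitted on spots above background in both channels, 2 were called: miR-20a probe 11008 (-1.14, limma adjusted p = 0.0210) and miR-17-5p (-1.14, adjusted p = 0.0357), while the median of all probes moved to -0.87. With arrays centred on 3 spiked controls, 3 were called: miR-17-5p (-0.58), miR-20a probe 11008 (-0.57; both adjusted p = 0.0363) and miR-18 probe 10970 (-0.54, adjusted p = 0.0484), with the median of all probes at -0.27. The members' median minus that of all probes was -0.17 as reported and, by construction, with spiked controls, -0.14 under that loess, -0.07 without background correction, -0.33 with only probes not empty in Hy5 and -0.84 in Hy3 alone. The cause was not tested.

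The count of 19 probes past the threshold was 7 with a filter of 2 background SD, 12 with only probes not empty in either channel (chosen after seeing the data), 12 with median centring, 12 with loess on bright spots, 42 with spiked controls, 8 without the intensity trend, 2 in Hy3 alone, and 9 to 25 without any 1 array. The filters tested fewer probes, with 1 to 3 members left.

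The direction of several probes turned, among them miR-106b, which had passed the test, and miR-363. MiR-92 was -0.13 with median centring, -0.18 with loess on bright spots, -0.24 with spiked controls, and -0.10 to 0.15 without any 1 array. MiR-106a was -0.74 with loess on bright spots, -0.0135 with spiked controls and -0.24 in Hy3 alone. MiR-19a was 0.0052 without background correction, and -0.38 to 0.0488 without any 1 array. MiR-17-3p was 0.014 with loess on bright spots. Without any 1 array, miR-18 probe 10983 ran from -0.34 to 0.0435 and miR-20b from -0.26 to 0.0352. MiR-106b was -0.24 in Hy3 alone. MiR-25 was 0.0032, miR-32 -0.0336 and miR-367 -0.0114 without background correction. With loess on bright spots miR-32 was -1.03, miR-363 -0.81, miR-367 -1.13 and miR-134 0.29, and with spiked controls miR-32 was -0.0987 and miR-367 -0.13. MiR-367 was -0.0342 and -0.022 without untreated replicate 3 and estradiol replicate 1. MiR-93 was 0.23 with median foreground, 0.00697 with median centring, and -0.31 to 0.0196 without any 1 array. Let-7d was -0.0207 with median foreground, -0.0118 with median centring, -0.22 with spiked controls, -0.41 in Hy3 alone, and -0.10 to 0.18 without any 1 array. MiR-134 was 0.31 in Hy3 alone. The pair miR-19a minus miR-19b ranged from -0.13 to 0.34 without any 1 array. MiR-503 passed the threshold under 6 alternatives.

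The replicate block gave 22 calls and 0 members, and ended the call on miR-106b (adjusted p = 0.0547). Same-numbered samples had correlations of their deviations of 0.12, 0.14 and 0.0835, and each sample correlated best with its own number, a hint from the data and not the design. The dim signal of most members limits how far a small change could be seen. Pairs were not fitted under filters or in Hy3 alone.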
